A study of Arabidopsis thaliana with 6 samples.

Results

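Aux/IAA proteins are repressors of the auxin response in plants, and 8 of their genes are described here in Arabidopsis thaliana cells exposed to phytoprostane A1 (PPA1), a reactive oxylipin made by chemical oxidation of a fatty acid rather than by an enzyme. The genes are IAA1 (AT4G14560, 245397_at), IAA2 (AT3G23030, 257766_at), IAA3 (AT1G04240, also SHY2, 263664_at), IAA5 (AT1G15580), IAA7 (AT3G23050, 257769_at), IAA14 (AT4G14550, 245593_at), IAA19 (AT3G15540, 258399_at) and IAA29 (AT4G32280, 253423_at). A gene is measured here by 1 probe set of the Affymetrix ATH1 array, chosen by its identifier, so 8 of the 22746 tested probe sets are members. The set was put together with the PPA1 response of these same arrays in view. Their changes after PPA1 are therefore a description, and no test of the group is drawn from them. A mixotrophic cell culture, which photosynthesises and also takes up organic carbon, received 75 µM PPA1 or 0.5% methanol in water as the control, and both groups were harvested at 4 h. There were 3 independent replicates per group and 1 array per replicate, and no genotype is named. The sources used here do not give the cell line, what separates the replicates, or the solvent of the PPA1 treatment.

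Auxin acts by removing Aux/IAA proteins. At low auxin they bind auxin response factors (ARFs), the transcription factors of the pathway, and recruit a co-repressor through a short motif near their start. Auxin glues a degron motif of the Aux/IAA protein to the receptors TIR1 and AFB, which are F-box proteins, and the repressor is ubiquitinated and destroyed. Many Aux/IAA genes are themselves switched on by the ARFs within minutes of an auxin pulse, so that the pathway rebuilds its own repressors, and their transcripts are widely used as a readout of auxin response.

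The arrays differed in ways that touch these genes. Median signals ran from 49.7 to 51.0 on the control arrays and from 41.9 to 44.8 on the PPA1 arrays, in the authors' normalized intensity units, and 3 arrays per group limit the precision. PPA1 replicate 1 stood apart from the other PPA1 arrays. Over the 10135 bright probe sets, those whose log2 signals average 6 or more, its log2 signals correlated with PPA1 replicates 2 and 3 at r = 0.833 and 0.839, and with the controls at 0.826 to 0.851, while PPA1 replicates 2 and 3 correlated at 0.987 and control pairs at 0.908 to 0.958. Both replicate 1 arrays also had the lowest mean log2 signals of the 18 hybridisation spike probe sets, 8.28 and 8.50 against 8.91 to 9.26 on the other arrays. For many of the genes below, though not all, values without PPA1 replicate 1 are also given. The culture could not be checked against marker genes, because the probe table used here pairs 1 of the 12 listed markers with a probe set. That marker, EXPA7 of root hairs, was below a signal of 16 on all 6 arrays.

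After PPA1, 6 of the 8 transcripts had lower signals on every treated array than on any control array. IAA5 was 13.8-fold below the controls, further down than any other member. IAA29 was 8.27-fold below, with PPA1 signals in the dim range, and its place next to IAA5 depends on the processing. IAA1 was 5.08-fold, IAA2 3.33-fold, IAA19 3.16-fold and IAA3 1.97-fold below. IAA7 and IAA14 stayed within the range of the controls or overlapped it. In limma's fit over all 22746 probe sets, 2 of the 8 members passed as lower (IAA5 and IAA29, Benjamini-Hochberg adjusted p under 0.05) and 0 as higher, where 0.994% of all tested probe sets were called lower and 0.809% higher. Groups that did not overlap were found for 20.1% of all tested probe sets with PPA1 lower and for 10.8% with PPA1 higher, against 6 and 0 of the members. The members' median log2 change was -1.70, and the whole tested array had a median of -0.21. In these bulk samples, fewer cells that express a gene and less of its RNA per cell cannot be told apart.

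**Figure D1:**
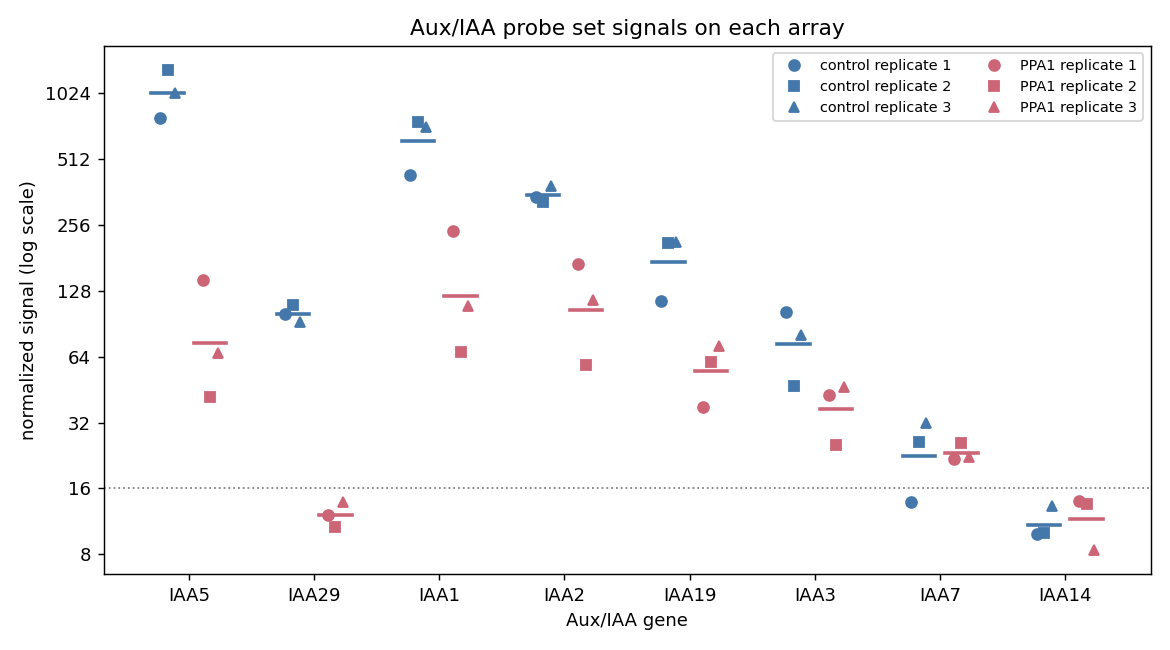
Normalized signal on a log scale (vertical axis) of the 8 Aux/IAA probe sets (horizontal axis), with blue symbols for controls, red symbols for PPA1, 1 symbol shape per replicate and bars for geometric means (n = 3 per group). The dotted line marks a signal of 16, below which probe sets are treated as dim; the groups are apart for IAA5, IAA29, IAA1, IAA2, IAA19 and IAA3, and overlap for IAA7 and IAA14.

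IAA5, a gene long known for its rapid induction by auxin, stood at 790.1, 1304 and 1028 signal units in control replicates 1 to 3. After PPA1 the signals were 143, 42.0 and 66.6 in replicates 1 to 3. All PPA1 values were far below the lowest control value, and PPA1 replicate 1 was the highest of the treated arrays. The log2 change was -3.79 with a standard error of 0.49, the 36th lowest of all tested probe sets. Relative to the geometric mean of the controls, 14.1%, 4.12% and 6.54% of the signal was left in PPA1 replicates 1 to 3. Without PPA1 replicate 1 the log2 change was -4.27.

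IAA29, which is known as a gene that responds to shade and warmth through phytochrome-interacting factors, had close replicates in both groups, with a range of 1.20-fold among controls and 1.29-fold after PPA1. Its control signals were 100.4, 110.3 and 91.7, and its PPA1 signals were 12.1, 10.7 and 13.8. PPA1 replicate 1 lay between the other treated arrays, unlike for IAA5. The log2 change was -3.05 with a standard error of 0.21, and it was also -3.05 without PPA1 replicate 1. All 3 PPA1 values were below 16, where the background step weighs on the size of a fold, and with 32 added to every signal before taking log2 the change was -1.58. On that scale the change of IAA1 was -2.05, and with replicates 2 and 3 alone IAA1 had -3.10 and IAA29 -3.05, so the order of these genes turned in both settings.

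The calls for IAA5 and IAA29 depended on which arrays were used. Both were lost (limma adjusted p from 0.0648 to 0.153) when any array other than PPA1 replicate 1 was left out, and with the replicate number as a block (0.140 and 0.135). In each of those fits 0 of all tested probe sets passed in either direction, so the loss was not particular to these genes. IAA5 was also lost with replicate 1 against the rest as a batch (0.0534), where IAA29 passed; over all alternatives the adjusted p ran from 0.00261 to 0.153 for IAA5 and from 0.00127 to 0.135 for IAA29. Both remained without PPA1 replicate 1, a fit in which 7.51% of all tested probe sets were called lower.

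IAA1 and IAA2 form a pair of closely related proteins, and their transcripts shared one order of the treated arrays. IAA1, in which a degron mutation makes plants resistant to auxin, had control signals of 430.7, 750.9 and 717.8. Its PPA1 signals were 240.1, 67.2 and 110 in replicates 1 to 3, all below the controls but with a 3.57-fold range among themselves. The log2 change was -2.35 with a standard error of 0.52. For IAA2 the control signals were 343, 324 and 384, a range of 1.18-fold, and the PPA1 signals were 169, 58.7 and 116, a range of 2.89-fold. Its log2 change was -1.74 with a standard error of 0.42. In both genes, as in IAA5, PPA1 replicate 1 was highest and replicate 2 lowest, and neither gene passed in the fit over all probe sets (limma adjusted p = 0.0845 and 0.0943). Without PPA1 replicate 1 both passed as lower, IAA1 with a log2 change of -2.84 (limma adjusted p = 0.0203) and IAA2 with -2.08 (0.0304). That fit called 7.51% of all tested probe sets lower. Over all alternatives the adjusted p ran from 0.0116 to 0.261 for IAA1 and from 0.0188 to 0.262 for IAA2.

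IAA19, also called MASSUGU2, acts with ARF7 in the bending of the seedling stem toward light and against gravity. Its control signals were 115, 212 and 213, so control replicate 1 lay well below the other controls. The PPA1 signals were 37.7, 60.8 and 71.8, and here PPA1 replicate 1 was the lowest treated array. The log2 change was -1.66 with a standard error of 0.38, and -1.39 without PPA1 replicate 1. IAA19 did not pass in the fit over all probe sets (limma adjusted p = 0.0881), nor with the replicate number as a block (0.135), where 0 of all tested probe sets passed. It passed as lower in 7 of 16 alternatives, with limma adjusted p from 0.0211 to 0.268 over all of them. The fits in which it passed called 163 to 3324 probe sets lower. The change of IAA19 relative to the control mean was -2.20, -1.51 and -1.27 on the log2 scale in PPA1 replicates 1 to 3, whereas that of IAA1 was -1.36, -3.19 and -2.49. The spread within the PPA1 group thus did not run the same way in all of these genes.

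IAA3, known from the short hypocotyl mutant shy2 and from its role where auxin and cytokinin meet in the root meristem, gave the smallest separation. Control signals were 103, 47.0 and 80.0, and PPA1 signals were 42.6, 25.3 and 46.6. The highest PPA1 value and the lowest control value were almost equal. The log2 change was -0.98 with a standard error of 0.40, and the gene did not pass.

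**Figure D2:**
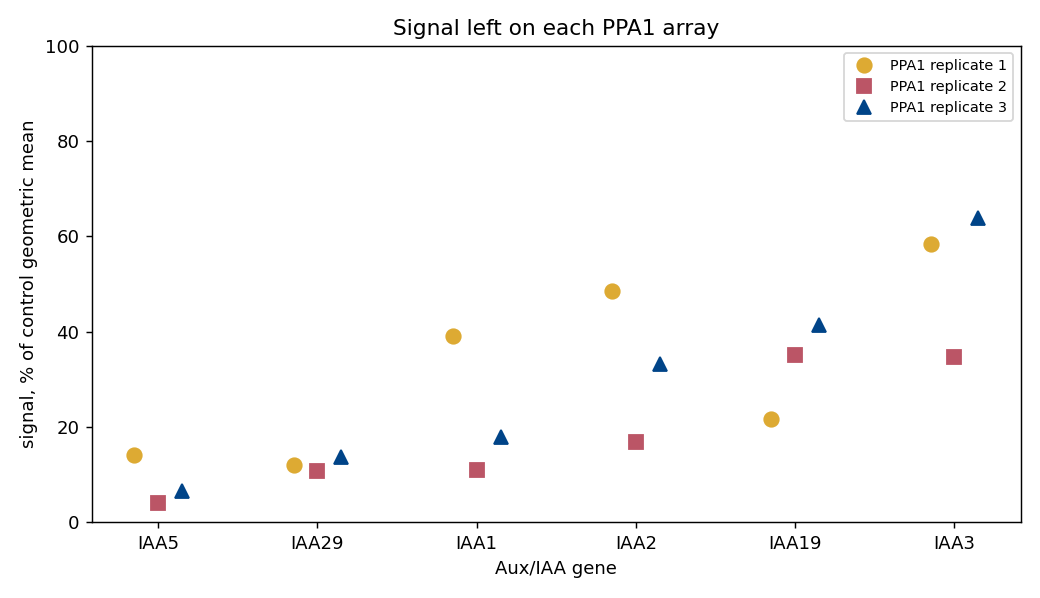
Signal on each PPA1 array as a percentage of the geometric mean of the 3 controls (vertical axis) for the 6 Aux/IAA genes whose groups did not overlap (horizontal axis), with 1 colour and symbol per PPA1 replicate. IAA29 shows 10.7% to 13.7% on all 3 arrays, while IAA1 runs from 10.9% to 39.1%, with replicate 1 highest, and IAA19 from 21.7% to 41.4%, with replicate 1 lowest.

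IAA7 and IAA14 were the members whose groups overlapped. IAA7, also AXR2, whose degron mutants are auxin resistant and agravitropic, had control signals of 13.9, 26.1 and 31.9 and PPA1 signals of 21.7, 25.8 and 22.3. All PPA1 values lay inside the control range, and the log2 change was 0.04 with a standard error of 0.35. IAA14, also SOLITARY-ROOT, whose degron mutant makes no lateral roots, had signals of 9.89, 9.99 and 13.3 in controls and 14.0, 13.6 and 8.36 after PPA1. The groups overlapped, all 6 arrays were below 16, and the log2 change was 0.09 with a standard error of 0.29. At such signals a change in either direction could go undetected, so these values do not show that the IAA14 transcript was unaffected.

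Several of these genes are neighbours in the genome. In the RefSeq gene table of assembly TAIR10.1, 0 other protein-coding genes lie between IAA1 and IAA14, and 0 between IAA2 and IAA7. IAA3 likewise adjoins IAA17, a further Aux/IAA gene, which the probe table used here does not pair with a probe set. Side by side, IAA2 had a log2 change of -1.74 and its neighbour IAA7 of 0.04, with 1 of the 6 IAA7 signals below 16. IAA1 had -2.35, and no comparison is made with its neighbour IAA14, which was dim on all 6 arrays. The difference between IAA2 and IAA7 was read from values that took part in the choice of the genes, and it was not tested.

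The 6 lower genes kept their direction in all 16 alternative fits. Their groups did not overlap, so only the other scalings (centring and quantile normalization) could have reversed it. In the remaining fits the direction was fixed in advance, and only the size could vary. Log2 changes ran from -4.45 to -3.28 for IAA5, -3.14 to -1.58 for IAA29, -3.10 to -1.92 for IAA1, -2.10 to -1.32 for IAA2, -1.96 to -1.24 for IAA19 and -1.30 to -0.61 for IAA3. IAA7 and IAA14 took values on both sides of 0, from -0.31 to 0.31 and from -0.11 to 0.38. When only the 14850 probe sets whose log2 signals average 4 or more were fitted, which leaves out IAA14, 5 members passed as lower (IAA1, IAA2, IAA5, IAA19 and IAA29) and 0 as higher, in a fit that called 8.79% of its probe sets lower and 5.39% higher. Centring each array on its median moved the median change of all tested probe sets from -0.21 to 0.01 and that of the members from -1.70 to -1.49.

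Of the 21 other Aux/IAA genes, the probe table used here pairs 6 with a probe set, and 0 of these 6 passed in either direction in limma's fit over all probe sets. At an unadjusted p under 0.05, 3 were lower (IAA20, IAA30 and IAA33, the last dim on all 6 arrays) and 0 higher. Of all tested probe sets, 14.8% were lower and 8.26% higher at that limit. IAA20 and IAA30, close relatives that lack the degron and are therefore long-lived, had the lowest log2 changes. IAA30 had control signals of 157, 283 and 326 and PPA1 signals of 74.5, 43.9 and 70.0, so the groups did not overlap. Its log2 change was -1.99 ± 0.38 (SE; limma adjusted p = 0.0651). IAA20 had signals of 40.3, 45.1 and 38.4 in controls and 18.7, 4.44 and 5.24 after PPA1. Its log2 change was -2.44 ± 0.58 (SE; limma adjusted p = 0.0926), and 2 of its PPA1 values were dim. With 32 added the change was -0.84 for IAA20 and -1.56 for IAA30, the reverse order. Without PPA1 replicate 1 both passed as lower, IAA20 with -3.09 (limma adjusted p = 0.00687) and IAA30 with -2.14 (0.0438). Both also passed as lower in the fit that leaves out dim probe sets (limma adjusted p = 0.0183 for IAA30 and 0.0309 for IAA20). The fit without PPA1 replicate 1 called 7.51% of its probe sets lower, and that without dim ones 8.79%. Each gene passed in 7 of 16 alternatives, with limma adjusted p from 0.0123 to 0.227 for IAA30 and from 0.00687 to 0.269 for IAA20. The fits in which they passed called 640 to 3324 probe sets lower.

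Not every Aux/IAA transcript was lower by much. IAA18, known from embryo patterning, had signals of 402, 367 and 347 in controls and 295, 324 and 329 after PPA1. These groups did not overlap either, but the log2 change was -0.23 with a standard error of 0.19, close to the array-wide median, and -0.02 with each array centred on its median. IAA33 had a log2 change of -1.16 with a standard error of 0.45, with all arrays below 16, and -0.19 with 32 added. IAA31 was also below 16 on all arrays and IAA34 on 5 of 6, with log2 changes of 0.40 (standard error 0.62) and -0.23 (standard error 1.16). Over these 6 genes the median log2 change was -0.69.

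**Figure D3:**
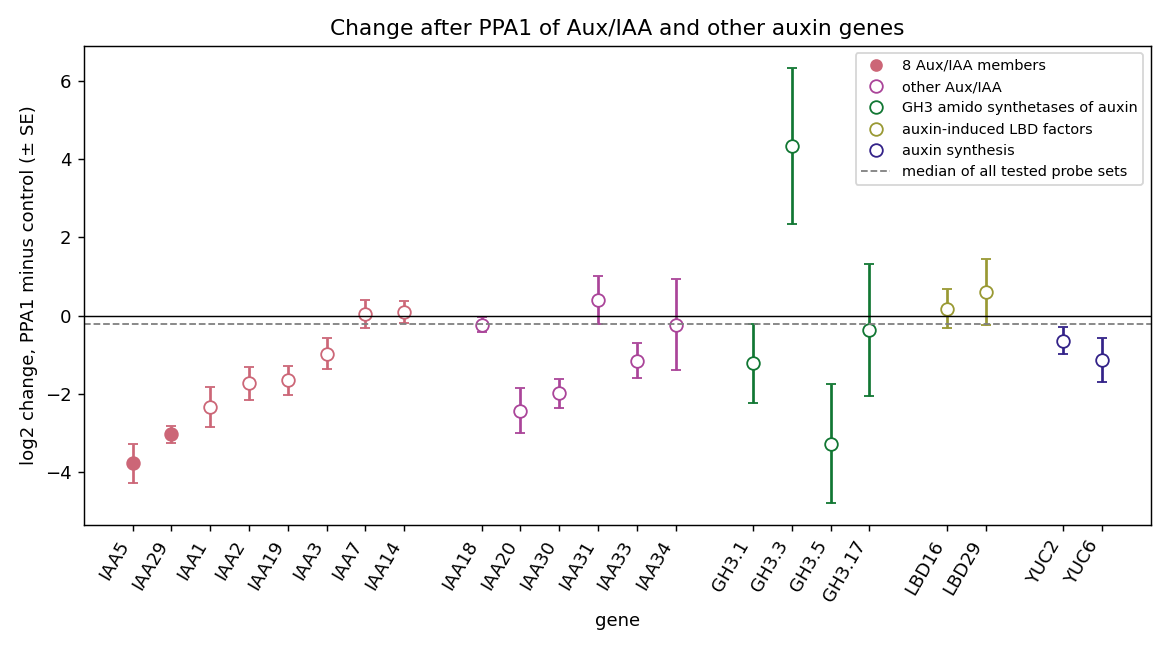
Log2 change of each gene after PPA1 relative to controls (vertical axis; bars are standard errors of the limma fit, n = 3 per group), with genes of each list along the horizontal axis. Filled symbols passed an adjusted p of 0.05 over all tested probe sets and open ones did not; IAA5 and IAA29 are the filled symbols, and the dashed line is the median of all tested probe sets, -0.21.

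GH3 enzymes join auxin to amino acids and so lower the active pool, and several of their genes are classic rapid targets of auxin. The probe table pairs 4 of the 6 listed GH3 genes, and 0 of the 4 passed in either direction in limma's fit with all arrays (0 at an unadjusted p under 0.05). Of all tested probe sets, 0.994% passed as lower and 0.809% as higher (14.8% and 8.26% at the unadjusted limit). The 0 counts of so few genes therefore say little. In GH3.3 and GH3.5 the treated arrays split. GH3.3 had control signals of 2.21, 10.8 and 21.1, and PPA1 signals of 7.70, 637 and 862. PPA1 replicate 1 was inside the control range, whereas replicates 2 and 3 were far above it. GH3.5, which can also conjugate salicylic acid, had control signals of 59.5, 49.7 and 82.7, and PPA1 signals of 74.6, 2.86 and 1.24. PPA1 replicate 1 again lay with the controls, and replicates 2 and 3 were far below them.

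With all arrays the log2 change of GH3.3 was 4.35 ± 2.01 (SE; limma adjusted p = 0.261) and that of GH3.5 was -3.28 ± 1.52 (SE; limma adjusted p = 0.262). Without PPA1 replicate 1, GH3.3 passed as higher with a log2 change of 6.54 (limma adjusted p = 0.0275) and GH3.5 as lower with -5.05 (limma adjusted p = 0.0105). Over all alternatives the adjusted p ran from 0.0252 to 0.530 for GH3.3 and from 0.0105 to 0.529 for GH3.5. That fit called 6.32% of all tested probe sets higher and 7.51% lower, and it takes its treated spread from 2 arrays. GH3.3 in controls and GH3.5 on those 2 arrays were mostly dim, so the size of both changes is uncertain. On PPA1 replicate 1, GH3.3 was at 96.8% and GH3.5 at 119% of the geometric mean of the controls. On that array IAA29 was at 12.1%, IAA5 at 14.1%, IAA19 at 21.7%, IAA1 at 39.1%, IAA2 at 48.5% and IAA3 at 58.5%. IAA7 and IAA14 were at 96.0% and 128%. The other GH3 genes were dim on most arrays, with log2 changes of -1.22 (standard error 1.01) for GH3.1 and -0.37 (standard error 1.70) for GH3.17.

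**Figure D4:**
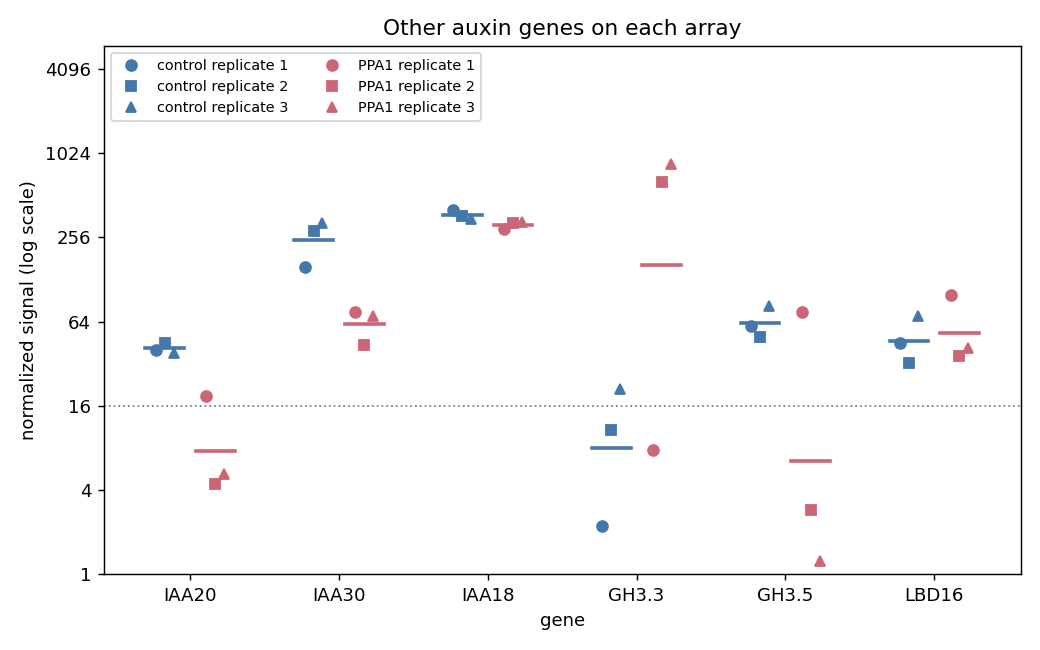
Normalized signal on a log scale (vertical axis) of 6 other auxin genes (horizontal axis), with blue symbols for controls, red symbols for PPA1, 1 symbol shape per replicate, bars for geometric means (n = 3 per group) and a dotted line at 16. PPA1 replicate 1 (red circle) lies with the controls for GH3.3 and GH3.5, at 7.70 and 74.6, and below the controls for IAA20 and IAA30, at 18.7 and 74.5.

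The LBD and YUC genes were the other listed genes with a probe set. LBD16, a transcription factor gene that ARFs switch on in lateral root formation, had signals of 45.2, 32.7 and 69.7 in controls and 99.3, 36.5 and 41.2 after PPA1, with a log2 change of 0.18 and a standard error of 0.49. Without PPA1 replicate 1 the LBD16 change was -0.27, on the other side of 0. LBD29, which acts with it, was below 16 on all arrays. YUC2 and YUC6 encode flavin monooxygenases that make auxin. YUC2 had signals of 26.3, 41.1 and 46.0 in controls and 29.3, 26.6 and 16.6 after PPA1, with a log2 change of -0.65 and a standard error of 0.34. YUC6 was below 16 on all arrays, with a log2 change of -1.14 and a standard error of 0.56. With 32 added that change was -0.06, so nothing is read from it, although 3 of 14 alternatives called it lower. One of these was the fit without PPA1 replicate 1, with a YUC6 change of -1.77 (limma adjusted p = 0.0137). That fit called 7.51% of all tested probe sets lower. In limma's fit of all arrays with condition as the only term, 0 of the 2 LBD genes and 0 of the 2 YUC genes passed in either direction (0 and 0 at an unadjusted p under 0.05). With 0.994% of all tested probe sets called lower and 0.809% higher (14.8% and 8.26% at the unadjusted limit), these 0 counts say little. Receptors (6 genes), ARFs (12 genes) and auxin transport genes (9 genes) were not analysed here, since the probe table pairs 0 of them with a probe set.

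Among 10131 other bright probe sets, the profile over the 6 arrays most like that of IAA5 belonged to 250827_at (Pearson r = 0.998), followed by 254224_at (0.998) and 251544_at (0.998). The last of these measures GAUT15, a galacturonosyltransferase gene by name, which went from a mean log2 signal of 8.16 ± 0.25 to 5.84 ± 0.62 (SD, n = 3 each). Next came 253631_at (0.997) and 249787_at, which measures AT5G24320 (0.995). The profile most like the mean of the 8 members was that of 258432_at (r = 0.999), then 263856_at, which measures AT2G04410 (0.998), 248895_at (0.998), 260311_at for AT1G70570 (0.996) and 248098_at for AT5G55290 (0.995). These correlations describe 6 points that fall into the same 2 groups of arrays. The 5 probe sets most like IAA5 all had smaller log2 changes than IAA5 itself, for example -0.79 for 250827_at and -2.31 for GAUT15.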

How the data were processed

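Per the labels' protocols, RNA from a column extraction was amplified, biotin-labelled and hybridised to 1 ATH1 array per sample. The deposited table gives 1 normalized intensity per probe set and array, made by the authors and linear in scale, as its range of 0.00178 to 11319.7 shows. GCRMA, a background correction and normalization method, is named per the submitters' processing notes, with version and later steps not given in the sources used here. Column medians differ slightly, and the table holds no detection calls, so probe sets under a signal of 16 (log2 of 4) were treated as dim.

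The values were taken to log2 as they are. The 64 manufacturer control rows were set aside, and limma 3.58.1 (lmFit, eBayes; R 4.3.3) fitted the remaining 22746 probe sets with a single term for condition, two-sided, with Benjamini-Hochberg adjustment over all of them and a threshold of 0.05. Standard errors are moderated ones from this fit. The fit was also run on simulated data with independent noise for each probe set and no outlying array. That run therefore does not show how an array such as PPA1 replicate 1 affects the calls. Figures and tables were made with Python 3.11.15, numpy 2.4.6, pandas 2.3.3 and matplotlib 3.10.9. P-values set each difference against the spread between these samples only. The replicates are given as independent, but the labels do not name separate cultures, so that spread may be technical.

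The members and gene lists were chosen with earlier results of these data known. All 8 members are described. From the lists (other Aux/IAA, receptors, ARFs, GH3, transport, LBD, auxin synthesis and cell type markers) every gene with a probe set was counted and up to 4 of each were named by mean signal, with the few remaining Aux/IAA genes named as well. The profiles named as most like were those with the highest Pearson r. The genes of 7 members come from the given identifiers and that of IAA29 also from the platform annotation, which lists 14016 probe sets, 13513 with 1 gene and 503 with several, and leaves 8794 unnamed here. Symbols were matched through RefSeq gene identifiers. No sequences are shown, and coordinates are not given because the build behind the array is not stated.

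Equal replicate numbers were checked for pairing by correlating the departures of each control and PPA1 array from its group mean. Same-numbered arrays gave r = 0.06, 0.03 and 0.02 over all tested probe sets and 0.16, 0.24 and 0.15 over the bright ones (mean log2 of 6 or more). Differently numbered arrays gave -0.04 to 0.02 over all tested probe sets and -0.25 to 0.15 over the bright ones. What a number stands for is not in the labels, so the pairing was not settled, and the blocked result stands beside the calls. The alternatives were other scalings, limits on dim probe sets, an added constant, variance models, array weights, batches and leaving out arrays.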

Additional observations from a re-analysis of the deposited data

How the results depend on the processing

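Counts of Aux/IAA members called lower are given first, then all probe sets called lower and higher by limma; 0 members were called higher in every fit. Against 2 members (226 and 184), each array centred on its median gave 2 (154 and 239) and quantile normalization 2 (182 and 205). Replicate 1 against the rest as a batch also gave 2 (163 and 166), but these were IAA29 and IAA19, with IAA5 at a limma adjusted p of 0.0534. A limit of mean log2 signal at least 4 gave 5 (1305 and 801), 32 added before log2 gave 5 (1349 and 748), the robust variance trend 5 (1171 and 791) and array weights 5 (3324 and 2130), in each case IAA1, IAA2, IAA5, IAA19 and IAA29. Replicates 2 and 3 alone gave 4 (640 and 769), without IAA2. The replicate block gave 0 members (0 and 0, while 3032 and 1768 had an unadjusted p under 0.05), and the same replicate block with the limit on dim probe sets, chosen after seeing the data, gave 5 (947 and 610), with IAA3 in place of IAA1. Leaving out 1 array gave 0 to 4 members (0 to 1708 and 0 to 1437). The count was 4 without PPA1 replicate 1 (IAA1, IAA2, IAA5 and IAA29). With each other array left out in turn it was 0 (2133 to 2790 lower and 1208 to 1567 higher at an unadjusted p under 0.05). All of these fits, that without PPA1 replicate 1 included, have 5 arrays and so fewer residual degrees of freedom. Why their counts differed was not tested. The median log2 change of the members, -1.70, became -1.35 with 32 added, which shrinks changes of low signals, and ran from -1.89 to -1.49 in the other fits. IAA14 on all 6 arrays and IAA29 on the 3 PPA1 arrays were below 16, and IAA7 ran from 13.9 to 31.9. Such low signals limit what the folds of these genes can show.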
